A study of Mus musculus with 8 samples.

Results

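The GIMAP genes (GTPases of immunity associated proteins) were taken as the rows of the deposited expression table whose symbol, with case ignored, was Gimap1, Gimap3, Gimap4, Gimap5, Gimap6, Gimap7, Gimap8 or Gimap9. All 8 were found among the 27179 genes of the table, and each was measured in all 8 libraries. The libraries held mRNA of splenic CD4+ T cells from mice of the strain C.Cg-Foxp3tm2Tch/J, which carries a Foxp3 reporter allele in every group, at an age of 8 weeks. The parents had drunk water with 10 ppm CdCl2 (Cd offspring) or unspiked water (control offspring) around mating and through pregnancy, and all water was unspiked from birth on. The cells were enriched by negative selection, sorted, and described in the study's figure legends as CD25-negative conventional cells. They were either left unstimulated (0 h) or cultured for 16 h with anti-CD3/CD28 beads, which engage the T cell receptor and a costimulatory receptor. Each of the 4 groups (control unstimulated, control stimulated, Cd unstimulated, Cd stimulated) had 2 libraries, numbered 6 and 7. The labels do not say which animals gave which library, so the p values measure the spread between these libraries only.

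GIMAP proteins are small GTPases, switches that bind and split GTP, with a shared AIG1-type GTP-binding domain and, in several members, a tail that anchors them in intracellular membranes. They are made mostly in lymphocytes, and in mice the loss of Gimap5 or of Gimap1 depletes mature T cells, which is why the family is known for lymphocyte survival. Members have been linked to BCL-2 family proteins, to the Atg8 proteins of autophagy and to the kinase GSK3.

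The 8 genes lay side by side on chromosome 6 of the mouse genome (GRCm38), within 123.7 kb from the start of Gimap8 to the end of Gimap3. From the low to the high coordinate the order was Gimap8 (chr6:48647186-48660875), Gimap9 (chr6:48676121-48679116), Gimap4 (chr6:48684578-48692062), Gimap6 (chr6:48701583-48708244), Gimap7 (chr6:48718621-48724636), Gimap1 (chr6:48739047-48743795), Gimap5 (chr6:48746197-48754200) and Gimap3 (chr6:48764464-48770851). Gimap6 and Gimap3 were on the minus strand and the other 6 on the plus strand. The gene models of Gimap3 and Gimap5, known as close paralogs, shared 190 words of 50 identical nucleotides, 7.52% of the words of Gimap3 and 4.53% of those of Gimap5. The antisense gene Gimap1os covered 36.0% of the exon length of Gimap1. A protein-coding gene model on the plus strand, Gm28053, shared 198 exon nucleotides with Gimap1, 153 with Gimap5 and 81 with Gimap7. Whether counting used strand, and how reads that align to both paralogs were treated, is not given in the sources used here, so reads of these genes may be partly shared.

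The promoters of Gimap6, Gimap7 and Gimap9 are shown because these genes stood at the ends of the response described below: Gimap6 had the highest level in unstimulated cells, Gimap7 had the largest fall and Gimap9 did not fall. The sequences are RefSeq promoters of GRCm38.p6, from 250 bases before to 50 after the start, written 5' to 3' on the gene's own strand. They lie at chr6:48708195-48708494 (minus strand), chr6:48718371-48718670 (plus strand) and chr6:48675885-48676184 (plus strand). Capitals mark matches on either strand to 5 short motifs: GGAAG (the core bound by ETS factors), TGTTTAC (forkhead), TGTGGTT (Runx), CTTTGAA (Tcf) and CACCC (Klf and Sp). No match overlaps another in these 3 windows.
Gimap6: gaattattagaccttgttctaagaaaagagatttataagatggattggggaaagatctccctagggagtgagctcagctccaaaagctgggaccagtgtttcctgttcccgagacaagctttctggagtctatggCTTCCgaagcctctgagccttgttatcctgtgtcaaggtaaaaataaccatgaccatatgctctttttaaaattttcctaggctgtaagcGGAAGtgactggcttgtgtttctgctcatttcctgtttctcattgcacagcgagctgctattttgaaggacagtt
Gimap7: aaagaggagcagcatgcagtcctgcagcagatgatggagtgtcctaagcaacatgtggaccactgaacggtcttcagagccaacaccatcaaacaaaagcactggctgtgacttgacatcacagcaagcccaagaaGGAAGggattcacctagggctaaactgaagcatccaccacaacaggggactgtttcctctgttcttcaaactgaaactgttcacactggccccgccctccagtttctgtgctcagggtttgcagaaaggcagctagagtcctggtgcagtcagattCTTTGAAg
Gimap9: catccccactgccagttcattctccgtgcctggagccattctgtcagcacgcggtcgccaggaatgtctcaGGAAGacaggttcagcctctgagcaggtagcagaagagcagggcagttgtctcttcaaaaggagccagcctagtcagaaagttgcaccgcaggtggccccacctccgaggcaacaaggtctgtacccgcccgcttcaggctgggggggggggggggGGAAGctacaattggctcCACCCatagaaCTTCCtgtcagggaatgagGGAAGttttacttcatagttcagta

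Gimap8 has 2 starts whose windows overlap, so the same site can count in both. The ETS core was found in each of the 9 promoters of the family, with 4 matches in Gimap9, 2 in Gimap6 and 1 in Gimap7. It is a common string, held by 71.4% of 32851 mouse promoters of the same length. The forkhead letters, held by 3.65% of all promoters, were found in Gimap3 alone. The Tcf letters, held by 5.14%, were found in Gimap7 alone, and the Runx letters, held by 5.27%, in none of the 9. The Klf and Sp letters were in 6 of the 9, among them both overlapping windows of Gimap8, and in 57.5% of all promoters. The windows of Gimap6, Gimap7 and Gimap1 lacked these letters. A match of letters is a description of the sequence and not a measured binding site.

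Levels are given in RPKM, the reads of a gene scaled to the length of its transcript and to the total of the library. Libraries held 15542732 to 25486791 reads counted on genes, and the 2 libraries of a group correlated at r = 0.983 to 0.990 across 12605 genes. The 7 activation genes that check the stimulation labels were all higher after stimulation in both kinds of offspring, from Cd69 with a log2 fold change of 1.16 to Irf4 with 7.63 in control offspring. Of the T cell list (Cd3d, Cd3e, Cd3g, Cd4, Cd5, Lck), the summed level was 1948 to 2096 RPKM without and 1297 to 1351 RPKM with stimulation. Ms4a1 and Pax5 of B cells, Lyz2 of myeloid cells, Ncr1 of NK cells, Hba-a1 of erythroid cells and Kdr of endothelial cells were at or near 0 in all libraries. With stimulation the summed level went from 16.8 to 20.1 RPKM down to 4.92 to 5.57 RPKM for 3 NK genes, from 6.23 to 7.83 down to 3.21 to 4.31 RPKM for 5 myeloid genes, from 84.9 to 88.3 down to 36.5 to 40.2 RPKM for 3 endothelial genes (nearly all Pecam1), and from 14.9 to 19.2 up to 139.9 to 173 RPKM for 4 regulatory T cell genes (mostly Il2ra, itself an activation gene). The sum was 9.52 to 11.8 RPKM for 2 CD8 genes, nearly all Cd8b1, with Cd8a at 0.160 RPKM or less in every library. Other markers of these lists were above 0. Cd79a of the B cell list had 3.11 and 3.16 RPKM without and 4.16 and 4.71 RPKM with stimulation (means of 2 libraries in control and Cd offspring, SDs 0.0169 to 0.343), with log2 fold changes of 0.41 (adjusted p = 0.0177 in limma) and 0.57 (adjusted p = 0.00408). Alas2 of the erythroid list had 0.365 to 1.72 RPKM over all libraries. The part of these lists in the results below was not tested. In bulk RNA, fewer cells of a type and less RNA per cell cannot be told apart.

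The GIMAP genes were abundant transcripts of unstimulated CD4+ T cells. In control offspring their levels ran from 39.9 ± 0.395 RPKM (SD, n = 2) for Gimap5 to 532 ± 3.92 RPKM (SD, n = 2) for Gimap6. These were the 93.2nd and 99.7th percentile of all 27179 genes in the table, of which 12605 reached a mean of 0.5 RPKM. The summed level of the 8 genes was 1772 ± 15.4 RPKM (SD, n = 2). The order was Gimap6, Gimap3, Gimap4, Gimap8, Gimap1, Gimap9, Gimap7 and Gimap5, in control and in Cd offspring alike, and the libraries of neighbours in this order did not overlap. Between 375 reads (Gimap7 in 1 stimulated control library) and 18894 reads (Gimap3 in 1 unstimulated Cd library) stood behind each value, so counting error was small for every member. All 8 passed the filter of a mean of at least 0.5 RPKM.

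**Figure D1:**
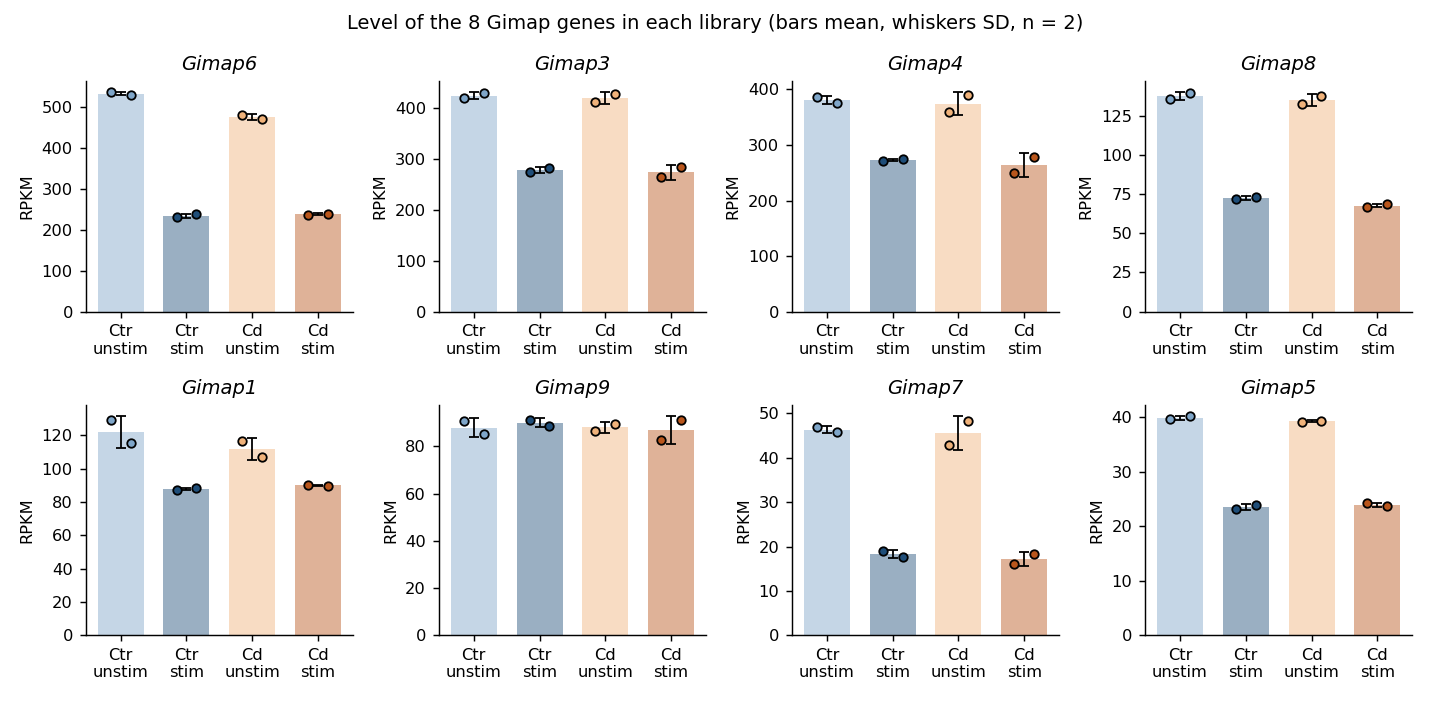
Level in RPKM (linear axis from 0, a scale of its own for each gene) of the 8 Gimap genes in the 4 groups. Points are libraries, bars the mean and whiskers the SD of 2 libraries. For 7 genes both stimulated libraries lie below both unstimulated ones in each kind of offspring, while the libraries of Gimap9 lie between 82.7 and 91.3 RPKM in all groups.

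The first comparison asked how the family changed when T cells of control offspring were activated. After 16 h of stimulation 7 of the 8 genes were lower and Gimap9 was not. The falls differed widely in size, from 1.39-fold for Gimap1 to 2.52-fold for Gimap7, and the summed level of the family went from 1772 to 1078 ± 12.7 RPKM (SD, n = 2). The thresholds of the study on adjusted p (under 0.01) and fold (more than 2-fold) were used with limma, without its further threshold on low counts. At these, 2 of 8 members, Gimap6 and Gimap7, were called lower, against 7.17% of the 12605 genes tested. At an adjusted p under 0.01 without the fold threshold, 7 of 8 were lower, against 21.8% of the genes tested. Fell is used below for an adjusted p under 0.01 in limma. The median log2 fold change of the 8 members was -0.68, beside 0.070 over all genes tested.

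Gimap5 is the member best known for T cell survival and resides on lysosomal membranes. In control offspring its unstimulated libraries had 39.6 and 40.2 RPKM and its stimulated libraries 23.2 and 24.0 RPKM. The groups did not overlap, and Gimap5 fell by 0.76 on the log2 scale (standard error 0.046, adjusted p = 6.17e-06). Gimap3, its paralog, which has been tied to the segregation of mitochondrial DNA in blood cells, had 419.9 and 429.9 RPKM before and 275 and 283 RPKM after stimulation. Both stimulated libraries were again the lower ones, and the fall was 1.52-fold (log2 fold change -0.61, standard error 0.056, adjusted p = 5.13e-05).

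Gimap1, which mature T and B cells need to persist, had 129 and 115 RPKM in unstimulated and 87.2 and 88.2 RPKM in stimulated cells of control offspring. The unstimulated libraries differed more from each other than the stimulated ones, but all of them were above the stimulated libraries. The fall was as small as that of Gimap4 (log2 fold change -0.48, standard error 0.066, adjusted p = 0.000445), and under quantile normalization Gimap1 had -0.52, Gimap3 -0.39 and Gimap4 -0.30. Its antisense partner Gimap1os, which is no member of the family, went from 31.4 ± 1.41 to 16.7 ± 0.858 RPKM (SD, n = 2), with a fall of 1.87-fold (log2 fold change -0.90, adjusted p = 1.38e-05 from limma). The part of Gimap1os reads in the value of Gimap1 was not tested.

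Gimap4, which is known to speed up the execution of T cell death and to bind Bax, had 387 and 376 RPKM before stimulation and 271 and 274 RPKM after it. The groups did not overlap and the fall was 1.40-fold (log2 fold change -0.48, standard error 0.068, adjusted p = 0.000489). Gimap6, a partner of the Atg8 protein GABARAPL2 in autophagy, dropped from 534 and 529 RPKM to 230.0 and 237 RPKM. This was a fall of 2.28-fold (log2 fold change -1.19, standard error 0.047, adjusted p = 9.24e-07), and the most abundant member of the family became the third in order. Under quantile normalization the log2 fold change of Gimap6 was -0.93, under the 2-fold threshold.

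Gimap7, a GTPase that splits GTP as a dimer, had 46.9 and 45.7 RPKM in unstimulated and 19.0 and 17.6 RPKM in stimulated cells. It fell to 39.5% of its unstimulated mean (log2 fold change -1.33, standard error 0.084, adjusted p = 6.93e-06). Gimap8, the member with several GTP-binding domains in tandem, had 135 and 139 RPKM before and 71.6 and 73.3 RPKM after stimulation. It fell 1.89-fold, short of the fold threshold (log2 fold change -0.92, standard error 0.045, adjusted p = 2.12e-06).

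Gimap9, a little-studied member, had 90.7 and 85.2 RPKM in unstimulated and 91.3 and 88.8 RPKM in stimulated cells of control offspring. The groups overlapped. The log2 fold change was 0.035 with a 95% interval from -0.11 to 0.18 (adjusted p = 0.639 from limma), an interval that holds none of the falls of the other 7 genes. Its sign depended on the scaling, and it was -0.041 with median-of-ratios scaling and -0.036 with quantile normalization. For the other 7 genes both stimulated libraries were below both unstimulated ones, which was so for 37.2% of all genes tested.

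In Cd offspring the same question had a similar answer. Again 7 of 8 members were lower at an adjusted p under 0.01 (22.3% of the genes tested) and did not overlap between unstimulated and stimulated libraries (38.4% of the genes tested). Gimap7 was the only member called at the p and fold thresholds, 1 of 8 against 7.24% of the genes tested, and Gimap6 and Gimap8 stood just short of the fold threshold. The median log2 fold change of the 8 members was -0.66, beside 0.050 over all genes tested. The summed level went from 1690.3 ± 28.1 to 1062 ± 45.2 RPKM (SD, n = 2).

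Gimap7 had 42.9 and 48.3 RPKM in unstimulated and 16.1 and 18.3 RPKM in stimulated cells of Cd offspring, a fall of 2.64-fold (log2 fold change -1.40, adjusted p = 5.73e-06). Gimap6 had 481 and 470.3 RPKM before and 236 and 239 RPKM after stimulation. With a fold change of 1.999 (adjusted p = 1.92e-06) it missed the threshold by the narrowest margin. Gimap8 had 132 and 137 RPKM before and 66.9 and 68.4 RPKM after stimulation, and fell 1.99-fold (adjusted p = 1.67e-06). For both genes the call therefore turned on small shifts. With median-of-ratios scaling Gimap6, Gimap7 and Gimap8 were all called, and without the Cd stimulated replicate 7 the number called was also 3. It was 2 without either of the Cd unstimulated replicates.

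The other members of Cd offspring moved as in control offspring. Gimap5 went from 39.1 and 39.4 RPKM to 24.2 and 23.7 RPKM, a log2 fold change of -0.71 (adjusted p = 8.81e-06 from limma). For Gimap3 the unstimulated libraries had 412 and 429 RPKM and the stimulated ones 264 and 285 RPKM, and the log2 fold change was -0.62 (adjusted p = 4.72e-05). Both paralogs were thus lower, with the shared sequence named above as a limit. Gimap4 went from 359.9 and 389 RPKM to 249 and 279 RPKM (log2 fold change -0.51, adjusted p = 0.000394). The libraries of Gimap4 spread more in Cd than in control offspring, with an SD of 20.9 against 2.12 RPKM among stimulated cells. Gimap1 had 117 and 107 RPKM before and 90.1 and 89.8 RPKM after stimulation, a log2 fold change of -0.31 (adjusted p = 0.00404). This was the least firm of the falls, since the adjusted p was 0.0139 without the trend, 0.0211 without the Cd unstimulated replicate 6, and 0.0229 and 0.0251 without the Cd stimulated replicates 6 and 7. Gimap9 had 86.5 and 89.6 RPKM before and 82.7 and 91.2 RPKM after it, and the log2 fold change was -0.019 with a 95% interval from -0.16 to 0.12 (adjusted p = 0.804). Both of its groups overlapped, as in control offspring.

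**Figure D2:**
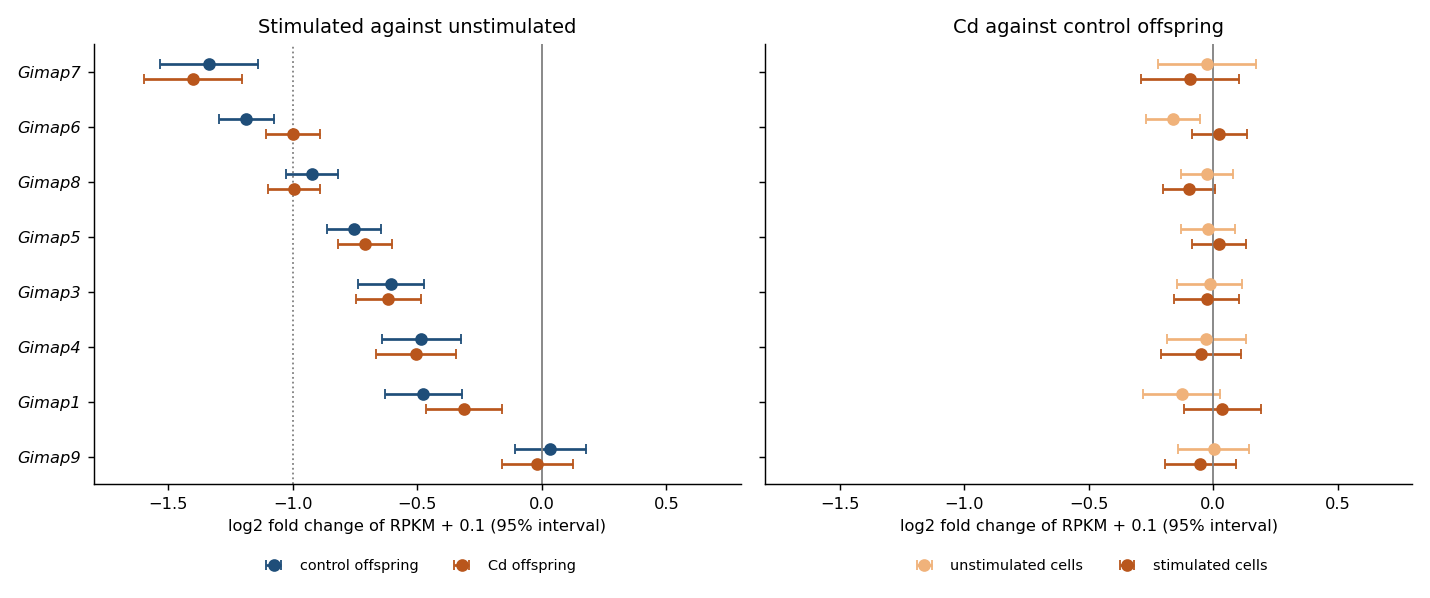
Log2 fold change of RPKM + 0.1 for each Gimap gene, with 95% intervals from limma, for stimulated against unstimulated cells (left, the dotted line marks a 2-fold decrease) and for Cd against control offspring (right). On the left the points run from -1.40 (Gimap7 in Cd offspring) to 0.035 (Gimap9 in control offspring), and on the right they lie between -0.16 and 0.036.

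Stimulation changed the make-up of the family as well as its total. Gimap6 held 27.5% to 30.0% of the summed RPKM in the 4 unstimulated libraries and 21.5% to 23.0% in the 4 stimulated ones. Gimap9 went the other way, from between 4.84% and 5.24% of the sum to between 8.03% and 8.54%. The share of Gimap4 went from between 21.4% and 22.8% to between 24.2% and 25.5%. Gimap7 shrank from between 2.57% and 2.83% to between 1.57% and 1.78%. The share of Gimap5 overlapped, at 2.22% to 2.34% without and 2.17% to 2.35% with stimulation. In the stimulated cells Gimap3 led the order, followed by Gimap4 and Gimap6. In control offspring no neighbours in that order overlapped, whereas in Cd offspring Gimap3 overlapped with Gimap4 and Gimap1 with Gimap9. The lowest member was then Gimap7 instead of Gimap5, with 18.3 ± 0.982 RPKM in control and 17.2 ± 1.52 RPKM in Cd offspring (SD, n = 2 each).

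**Figure D3:**
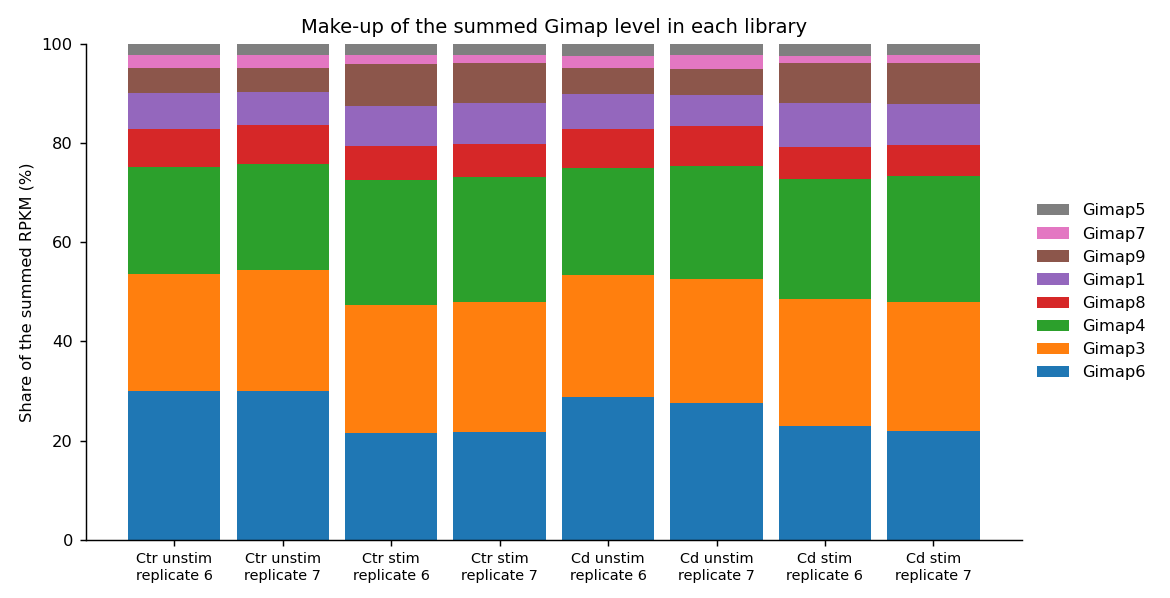
Share in percent of each Gimap gene in the summed RPKM of the 8 genes, 1 bar for each library, stacked to 100%. The Gimap6 segment shrinks from 27.5% to 30.0% in the 4 unstimulated to 21.5% to 23.0% in the 4 stimulated libraries, and the Gimap9 segment grows from 5.09% to 8.27%.

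The same was seen when each gene was set against the geometric mean of the other 7 genes of its library, a log2 ratio that another scaling factor for the library leaves unchanged. This measure was chosen after the levels had been seen and is given as a description. Gimap9 rose relative to the others by 0.82 on the log2 scale, from between -0.90 and -0.80 in the 4 unstimulated libraries to between -0.067 and 0.023 in the 4 stimulated ones. Gimap1, Gimap4 and Gimap3 had smaller shifts in the same direction, of 0.36, 0.24 and 0.11. Gimap7 shifted by -0.76, Gimap6 by -0.44 and Gimap8 by -0.29, and for these 7 genes the stimulated and unstimulated libraries did not overlap. Gimap5 had a shift of -0.032, with overlapping libraries, and so kept to the average of the family.

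Along the cluster the response did not follow the order of the genes. The adjacent Gimap6 and Gimap7, on opposite strands, had the largest falls in control offspring, although under quantile normalization Gimap8 with -0.98 was below Gimap6 with -0.93. Gimap9 lay between Gimap8, with a log2 fold change of -0.92 in control offspring, and Gimap4, with -0.48. Gimap1 and Gimap5, next to each other on the plus strand, had values of -0.48 and -0.76.

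**Figure D4:**
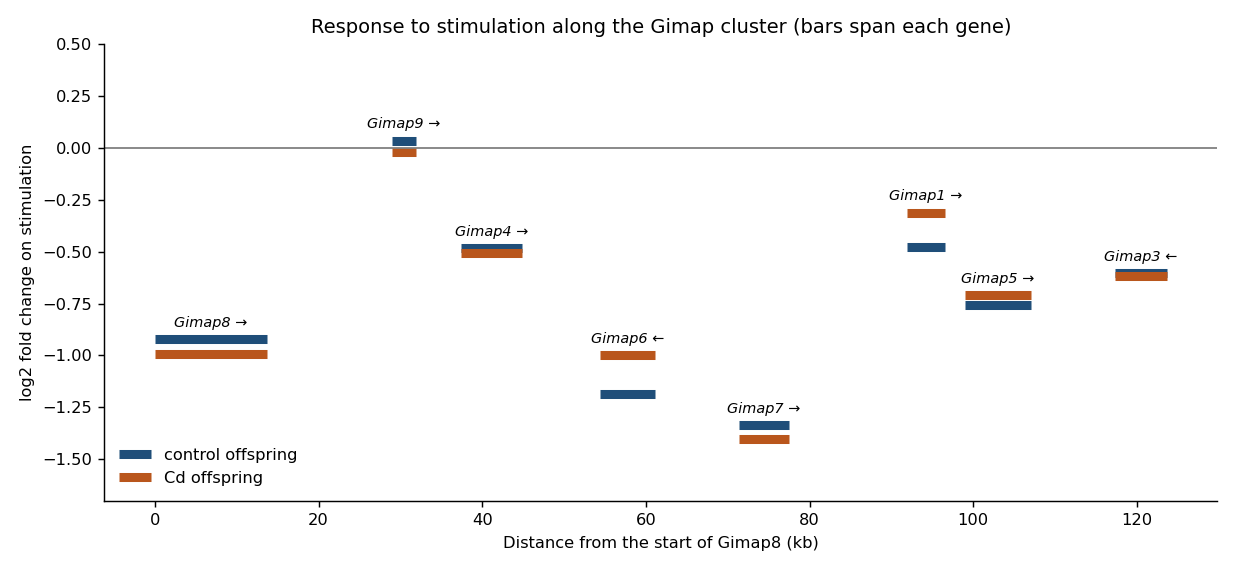
Log2 fold change on stimulation of each Gimap gene against its place in the cluster, as the distance in kb from the start of Gimap8. Bars span the gene from start to end, arrows give the strand and colours the 2 kinds of offspring. Neighbours differ, as with Gimap8, Gimap9 and Gimap4 at -0.92, 0.035 and -0.48 in control offspring.

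The next comparison asked whether parental Cd exposure was followed by other GIMAP levels in the offspring's unstimulated cells. None of the 8 members was called at an adjusted p under 0.05 in limma, against 0.896% of the genes tested. Limma voom on the recovered reads called none of them either, with 210 of 12604 genes called. At an unadjusted p under 0.05 there was 1 member, Gimap6, against 13.9% of the genes tested. Its 2 Cd libraries (481 and 470.3 RPKM) were below its 2 control libraries (534 and 529 RPKM), a log2 fold change of -0.16 (95% interval -0.27 to -0.052, unadjusted p = 0.00969, adjusted p = 0.212 from limma). With quantile normalization this value was 0.026, so its direction depended on the scaling. Gimap1 followed with -0.13 (95% interval -0.28 to 0.027, adjusted p = 0.432) and overlapping libraries, and its value was -0.047 without the control unstimulated replicate 6 and -0.21 without replicate 7 of that group, and -0.19 and -0.065 without the Cd unstimulated replicates 6 and 7. The other 6 genes were between -0.028 and 0.0017. Gimap6 and Gimap5 were the 2 members whose groups did not overlap, which held for 42.3% of the genes tested. The 95% intervals of the 8 genes ran together from -0.28 to 0.17.

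In stimulated cells, 0 of 8 members were called for Cd against control in limma (adjusted p under 0.05), and so were 0.0% of the genes tested. At an unadjusted p under 0.05 there were 0 members and 3.28% of the genes tested, and voom called 0 genes, with 444 at an unadjusted p under 0.05. Gimap8 had the lowest value, with 66.9 and 68.4 RPKM in Cd and 71.6 and 73.3 RPKM in control offspring (log2 fold change -0.099, 95% interval -0.20 to 0.0058, unadjusted p = 0.0608, adjusted p = 1 in limma). Gimap1 had the highest, 90.1 and 89.8 RPKM against 87.2 and 88.2 RPKM (log2 fold change 0.036, 95% interval -0.12 to 0.19). These were the 2 genes without overlap, against 36.7% of the genes tested, and they pointed in opposite directions. For Gimap9, the gene without a fall on stimulation, the log2 fold change between Cd and control offspring was -0.052 (95% interval -0.20 to 0.092).

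Whether the response to stimulation itself differed between Cd and control offspring was tested with the difference of the 2 contrasts. None of the 8 members was called, against 0.357% of the genes tested. Limma voom on the recovered reads also called none, with 111 of 12604 genes called. At an unadjusted p under 0.05 there was 1 member, Gimap6, against 10.6% of the genes tested, with a difference of 0.19 (95% interval 0.032 to 0.34, adjusted p = 0.390 in limma), a smaller fall in Cd offspring. Since its stimulated levels were 234 ± 5.08 and 238 ± 1.87 RPKM (SD, n = 2 each) in control and Cd offspring, the gap lay in the unstimulated cells, and it shares those libraries with the value above. Quantile normalization turned it to -0.023. Gimap1 had the next highest difference, 0.16 (95% interval -0.054 to 0.38, adjusted p = 0.558), which was 0.084 and 0.24 without the control unstimulated replicates 6 and 7, and 0.10 without the Cd unstimulated replicate 7. The other 6 genes were between -0.073 and 0.046, and the intervals of all 8 ran from -0.35 to 0.38.

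The mRNAs of proteins that GIMAP members are known to bind or act with moved in both directions. Of 11 such genes tested in control offspring, 4 were higher and 4 lower after stimulation at an adjusted p under 0.01, of which 3 and 2 also passed the 2-fold threshold. Of all genes tested, 29.9% were higher and 21.8% lower at an adjusted p under 0.01, and 11.5% and 7.17% with the fold threshold, and nothing is read from the counts of so short a list. The pair of survival genes split. Bcl2 fell from 36.8 ± 0.304 to 16.8 ± 0.802 RPKM (SD, n = 2; log2 fold change -1.13, adjusted p = 2.19e-06), the way of most Gimap genes. Bcl2l1, which encodes BCL-XL, rose from 7.31 ± 0.605 to 123 ± 3.46 RPKM (SD, n = 2; log2 fold change 4.06, adjusted p = 1.01e-07). The death genes Bax and Bcl2l11, which encodes BIM, rose by 1.24 and 0.60. Among the Atg8 genes Gabarapl1 rose from 0.999 to 10.4 RPKM (log2 fold change 3.25, adjusted p = 8.30e-07). Map1lc3b fell by 1.03 and Gabarapl2, whose product binds GIMAP6, fell by 0.51. The log2 fold change was -0.25 for Gabarap (adjusted p = 0.0110) and -0.73 for Map1lc3a (adjusted p = 0.0290). Gsk3b, the kinase gene tied to Gimap5, fell by 0.47, and Gsk3a had -0.089 (adjusted p = 0.258). In Cd offspring 4 were higher and 4 lower at an adjusted p under 0.01 and 3 were called higher and 0 lower with the fold threshold, since Bcl2 had -0.91 and Map1lc3b -0.89. The shares of all genes higher in Cd offspring were 30.2% and 11.4% at these thresholds. For Cd against control offspring in unstimulated cells, Bcl2 alone of the 11 was called, against 0.896% of the genes tested. Its log2 fold change was -0.34 (adjusted p = 0.0432 in limma), close to the threshold of 0.05. In this comparison 113 genes were called in the main fit and 14 without the trend. Values of Bcl2 under the other settings are not given here.

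Genes of the naive and quiescent state mostly fell on stimulation, as did the GIMAP genes. Of 16 listed genes, 12 were lower and 4 higher at an adjusted p under 0.01 in control and again in Cd offspring. Of all genes tested, 21.8% were lower and 29.9% higher in control offspring, and 22.3% and 30.2% in Cd offspring. With the fold threshold 7 and 6 of the 16 were called lower, against 7.17% and 7.24% of the genes tested. Their median log2 fold change was -0.94 in control and -0.77 in Cd offspring, beside -0.68 and -0.66 for the GIMAP genes. Txnip, an inhibitor of glucose uptake, had the largest fall in control offspring (-2.12), and Bach2, a repressor of effector genes, the largest rise (1.14). None of the 16 was called for Cd against control at an adjusted p under 0.05, without or with stimulation. The shares of all genes tested were 0.896% and 0.0%. The T cell list had 5 of 6 genes lower at an adjusted p under 0.01 in both kinds of offspring, against the same 21.8% and 22.3%. The medians of the T cell list were -0.62 and -0.55. The part of this list in the fall of the GIMAP genes was not tested.

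Outside the family, the genes whose profile over the 8 libraries was most like the mean profile of the 8 members were Ndrg3, Kbtbd2, Trim12a, Kat6b and Cd3d, out of 8681 genes with a mean of at least 5 RPKM. Likeness was the root mean square distance between the centred log2 values, which was 0.029 for Ndrg3 and 0.038 for Cd3d. Of the members themselves Gimap5 was nearest to the mean profile (0.040) and Gimap9 farthest from it (0.36), followed by Gimap7 (0.34). Ndrg3 had log2 fold changes on stimulation of -0.71 and -0.63 in control and Cd offspring, and Cd3d, a chain of the T cell receptor complex, of -0.75 and -0.64.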

How the data were processed

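RNA sequencing covered 8 libraries in 4 groups, taken from the sample labels. Reads were aligned by the authors with Subread (mm10) and assigned to RefSeq transcripts by featureCounts, with versions not given in the sources used here. The authors deposited 1 table of log2 values, log2(RPKM + 1) + 0.0001, a scale read from the values. The test, planned for RPKM, was run on back-transformed RPKM. The spacing of low values gave back whole reads and the totals of the libraries for 17793 of 17794 genes above 0 in at least 2 libraries (ratios between libraries within a relative 1e-09 of ratios of whole reads). The recovered reads sum to 14861223 to 24038721 a library, below the recovered totals of 15542732 to 25486791. The recovery and the fits were tested on simulated data.

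The 12605 genes whose mean RPKM reached 0.5 were fitted as log2(RPKM + 0.1) with limma 3.58.1 (R 4.3.3, 4 group means, trend), with Benjamini-Hochberg adjustment over all of them. A fold change on that scale understates the change of low genes. With 2 libraries against 2, an exact test cannot go below p = 0.333, so the model takes its spread from all libraries. The members, the lists (partners, naive and quiescence, activation, cell type markers, neighbours within 200 kb) and the tests were chosen with earlier results of these data known. All members and partners are named, and of the naive and activation lists the genes with the highest and the lowest log2 fold change on stimulation in control offspring. Also named are the 5 non-members nearest to the mean profile and the neighbours. Genes of the marker lists were named after their values were seen, and some results of the B cell and erythroid lists are not reported here. Gene spans are from RefSeq, and strands, exon lengths and overlapping genes from GENCODE, both on GRCm38. Other settings tried were median-of-ratios scaling, quantile normalization, a pseudocount of 0.5 or 1, a filter at a mean RPKM of 1 or none, a fit of the compared libraries alone, a replicate block, no trend, and the omission of each library. Limma voom on recovered reads and the count without the fold threshold were added after seeing the data.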

Additional observations from a re-analysis of the deposited data

How the results depend on the processing

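Each member had at least 375 reads in every library, and each group had 2 libraries. The number of members called on stimulation was 1 instead of 2 in control offspring with quantile normalization. In Cd offspring it was 3 with median-of-ratios scaling and 2 with quantile normalization instead of 1. Without the fold threshold it was 7 in both. Omitting each library gave 2 in control and 1 to 3 in Cd offspring. The 3 came from omitting the Cd stimulated replicate 7, and omitting either Cd unstimulated library gave 2. The lone library of a group was then assumed to vary like the other groups. The counts of 0 for both Cd comparisons and for the difference in response were 0 under every alternative run. In fits with the replicate number as a block the members called were 2, 1, 0, 0 and 0 as without it. The labels do not say whether the numbers pair the libraries. Deviations of same-numbered libraries from their group means correlated at 0.064 in control and 0.0085 in Cd offspring between unstimulated and stimulated cells. Between control and Cd offspring the values were 0.012 without and -0.041 with stimulation. Such correlations cannot decide whether the same number marks the same animal.

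Signs changed for the values below, and the cause was not tested. Gimap9 on stimulation in control offspring was -0.041 with median-of-ratios scaling and -0.036 with quantile normalization. For Cd in unstimulated cells, quantile normalization gave 0.11 for Gimap3, 0.12 for Gimap4, 0.026 for Gimap6 and 0.015 for Gimap8, and median-of-ratios scaling -0.015 for Gimap9. For the difference in response, median-of-ratios scaling gave 0.017 for Gimap3 and 0.0078 for Gimap4, and quantile normalization -0.023 for Gimap6.

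With 1 library left out, Gimap9 ranged from -0.011 to 0.080 on stimulation in control and from -0.089 to 0.052 in Cd offspring. Cd in unstimulated cells ranged from -0.043 to 0.014 for Gimap3, -0.084 to 0.029 for Gimap4, -0.11 to 0.061 for Gimap7, -0.052 to 0.0013 for Gimap8 and -0.044 to 0.047 for Gimap9. Cd in stimulated cells ranged from -0.080 to 0.027 for Gimap3, -0.13 to 0.032 for Gimap4 and -0.12 to 0.019 for Gimap9. The difference in response ranged from -0.066 to 0.042 for Gimap3, -0.10 to 0.059 for Gimap4, -0.16 to 0.022 for Gimap7 and -0.12 to 0.017 for Gimap9. The falls of the other 7 genes on stimulation kept their direction under every alternative run. Of their adjusted p values, that of Gimap1 in Cd offspring alone went above 0.01, in 4 alternatives, and reached 0.0251.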

Other observations

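The genes next to the cluster were mostly silent in these cells. Of 12 protein-coding neighbours within 200 kb of the outermost Gimap genes, 3 reached a mean of 0.5 RPKM, against levels of 17.2 RPKM and more for every Gimap gene in every group. Lrrc61 fell from 8.04 ± 0.204 to 3.68 ± 0.419 RPKM (SD, n = 2) on stimulation in control offspring (log2 fold change -1.11, adjusted p = 0.000250 from limma) and had -0.55 in Cd offspring (adjusted p = 0.00937). Repin1, a zinc finger gene, rose from 0.553 to 2.58 RPKM in control offspring (log2 fold change 2.04, adjusted p = 4.56e-05). Zfp775 had a log2 fold change of -0.30 (adjusted p = 0.162). Of the other 9, Tmem176a and Tmem176b, which lie beside the cluster, had 0.943 and 0.837 RPKM in unstimulated and 0.207 and 0.260 RPKM in stimulated cells of control offspring. Of the last 7, Sspo, Atp6v0e2, Rarres2 and Gm7932 had means of 0.570 RPKM or less in every group, and Gm5111, Aoc1 and Doxl1 were listed at 0 in all libraries. At an adjusted p under 0.01 in control offspring, 7 of the 8 Gimap genes and 1 of the 3 neighbours tested were lower. The share was 21.8% over all genes tested. The other 9 neighbours did not reach the filter and were not tested, so nothing is read from the count of neighbours.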
